A study of Mus musculus with 2 samples.

Results

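The 41 genes described here encode the core autophagy machinery of the mouse. They were taken as a list of named genes, and a gene was read from the array probes whose transcript accession belongs to it. The array held 53 probes in 71 spots for the 41 genes, which are 41 of the 20284 genes that could be named on it. They fall into 17 genes of initiation and membrane supply, 11 of the conjugation systems, 5 of the LC3 family, 5 cargo receptors, and the transcription factor Tfeb with the lysosomal membrane proteins Lamp1 and Lamp2.

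The RNA came from whole liver of male C57BL/6 mice with liver fibrosis. The TSG-6 group received recombinant TSG-6, a secreted protein that binds hyaluronan, into a vein, and the PBS group received PBS, the vehicle, by the same route; liver RNA was taken 2 weeks later. Equal amounts from 3 animals of a group were combined and hybridised to 1 one-colour array, so each group is 1 pool and 1 array. The age of the mice, the agent that caused the fibrosis and the dose are not given in the sources used here, and no liver without fibrosis was analysed. With 1 pool per group no test could be made, no p-value or SE between mice is given, and array and treatment cannot be told apart. In whole-liver RNA, fewer cells of a type and less RNA per cell cannot be told apart either.

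Autophagy encloses cytoplasm in a double membrane, the autophagosome, and delivers it to the lysosome for digestion. The ULK kinase complex starts the process and a lipid kinase complex built on beclin 1 marks the membrane. A pair of ubiquitin-like conjugation systems then attaches LC3 and GABARAP proteins to the growing membrane, where cargo receptors dock. The liver is known for high autophagic activity in fasting, when hepatocytes recycle protein, lipid droplets and glycogen. Autophagosome formation is controlled largely by protein modification and turnover, so transcript levels do not report autophagic flux.

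Of the 41 genes, 35 had at least 1 spot without an outlier flag and all 35 were well above background on both arrays, so no bound was needed. The other 6 (Uvrag, Atg3, Atg4b, Gabarapl2, Nbr1 and Optn) had only spots that the scanner software flagged as outliers on at least 1 array. Their values are given apart. Levels are log2 signals relative to the 75th percentile of the array's own spots, which was a signal of 2476 on the TSG-6 array and 3158 on the PBS array. The TSG-6 array was thus dimmer, and a raw signal that was lower there could still be a higher level. A difference is the level in TSG-6 less the level in PBS, on the log2 scale.

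As a set the autophagy genes differed little between the pools. Of the 35 measured genes, 4 were at least 1.5-fold higher in the TSG-6 pool, none was 1.5-fold lower, and 1 of the 4 was over 2-fold higher. For all 15148 genes that both arrays measured, 10.5% passed 1.5-fold upward and 10.3% downward, and 2.94% passed 2-fold upward and 4.28% downward. The share of higher genes among the autophagy genes, 11.4%, was therefore near the background. Among genes at or above the median level, where 26 of the 35 lie, 3 of the 26 autophagy genes passed 1.5-fold upward and 0 downward, against 7.33% and 5.53% of all 7574 such genes.

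The median difference of the 35 genes was 0.23, against 0.08 for all measured genes. Differences above 0 were found for 26 of the 35 (74.3%), against 57.5% of all genes and 60.6% of the genes at or above the median level, and 25 of the 35 lay above the all-gene median. The number above 0 ran from 10 with spike-in matching to 33 over the settings tried, so the sign of a small difference below holds for the main scaling. The quartiles were 0.01 and 0.43 for the autophagy genes, and -0.23 and 0.33 for all genes. The scale of all differences depended on how the arrays were matched. The all-gene median was -0.33 when the arrays were matched on their spike-in controls and 0.37 with a percentile over unflagged spots, and the autophagy median moved with it, to -0.18 and 0.52. The share of higher genes among all genes past 1.5-fold was 50.4% here, 9.44% with spike-in matching and 83.6% with unflagged spots; it was 33.6% with the arrays matched on their median, 38.3% after quantile normalization and 31.8% after loess. Set against the all-gene median of the same setting, the autophagy median was higher by 0.16, with a range of 0.08 to 0.20 over the 13 settings tried. Settings that match the arrays by 1 constant leave this value unchanged, so the 13 are not separate checks. Values relative to the all-gene median are therefore given beside the main ones below.

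Spot noise was small against the larger of these differences. Over 327 probes with replicate spots, the log2 difference had a pooled SD of 0.13 between spots. The error that the scanner software assigns to a spot, combined over both arrays, was 0.20 to 0.23 for the 35 genes. Taken relative to the all-gene median, 17 of the 35 genes lay within 1 such error, 9 between 1 and 2, and 9 beyond 2, of which 7 were higher and 2 lower in the TSG-6 pool. The 7 were Calcoco1, Atg14, Gabarapl1, Atg2a, Atg16l2, Atg9a and Rb1cc1, and the 2 were Becn1 and Atg4a. How many of all measured genes lay beyond 2 such errors was not counted. The 9 genes, and their split into 7 higher and 2 lower, therefore cannot be read as a trait of the autophagy genes. These errors leave out the spread between mice.

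**Figure D1:**
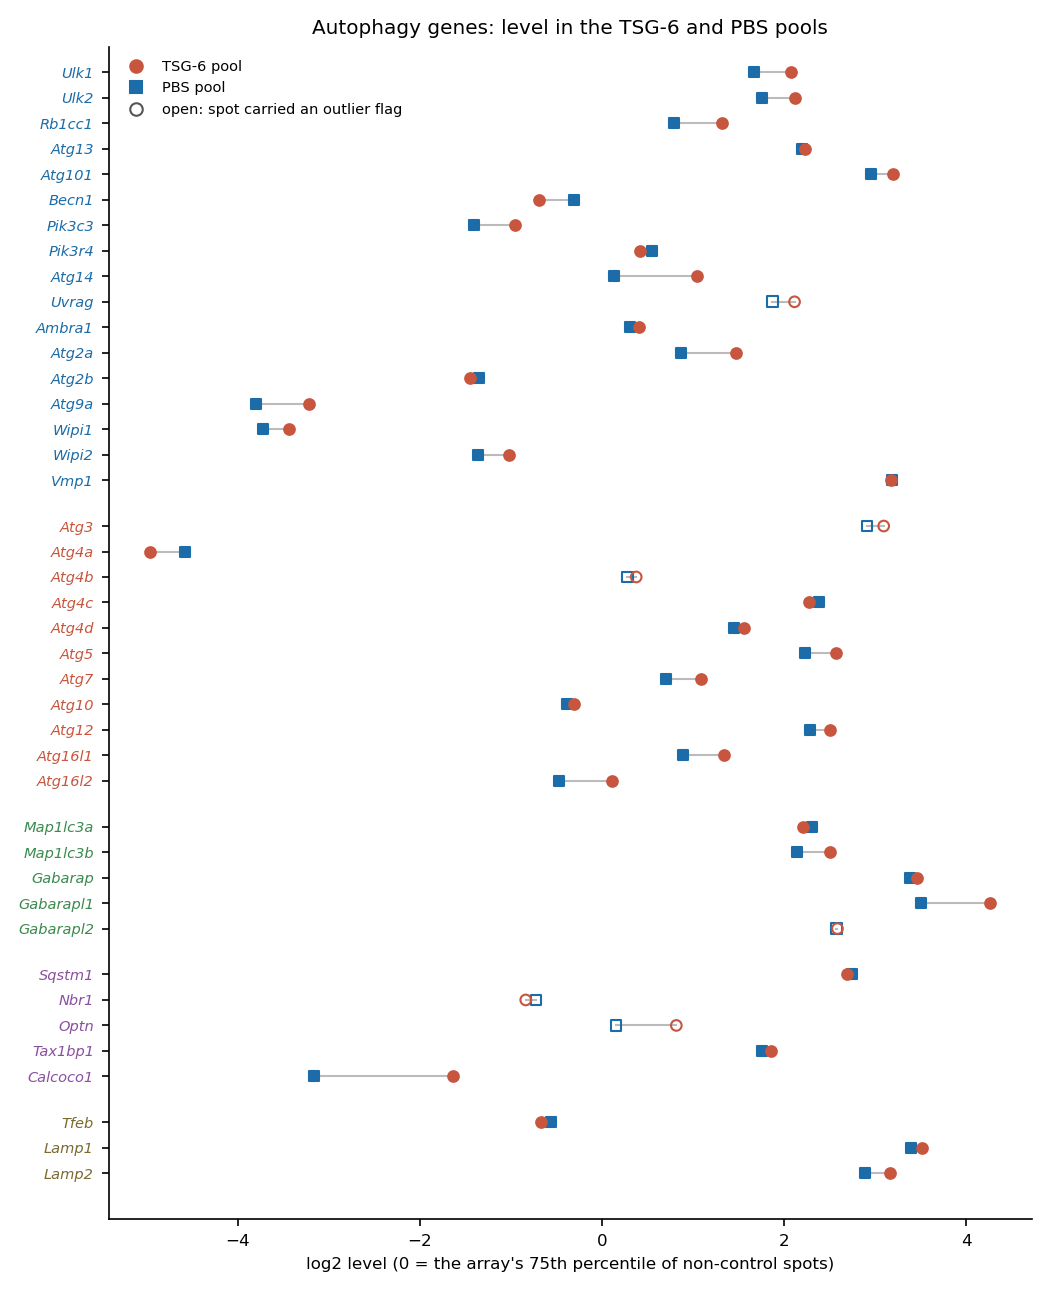
Log2 level of each of the 41 genes in the TSG-6 pool (circles) and the PBS pool (squares), with 0 at the 75th percentile of each array's non-control spots; gene names are coloured by role, and open symbols are genes with flagged spots only. The widest gap is that of Calcoco1, at -1.64 in the TSG-6 pool and -3.16 in the PBS pool; levels of different genes come from different probes and are not comparable.

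The 4 genes that were at least 1.5-fold higher belong to different steps: Calcoco1 to cargo capture, Atg14 and Atg2a to initiation and membrane supply, and Gabarapl1 to the LC3 family. Each of the 4 was read from 1 spot of 1 probe, so no second probe checks these calls. The promoters of the 4 genes are shown because these were the genes past 1.5-fold. Each is the window from 250 bases before to 50 bases after the transcription start in RefSeq for GRCm38.p6, given 5′ to 3′ on the gene's own strand, with any match to the motifs searched in capitals.
Calcoco1, chr15:102722129-102722428, minus strand: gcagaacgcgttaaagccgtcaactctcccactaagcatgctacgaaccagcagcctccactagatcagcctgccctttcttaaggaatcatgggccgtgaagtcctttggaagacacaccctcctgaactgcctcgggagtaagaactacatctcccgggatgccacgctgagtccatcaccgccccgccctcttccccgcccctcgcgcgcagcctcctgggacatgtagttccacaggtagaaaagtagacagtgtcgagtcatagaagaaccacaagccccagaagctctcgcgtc
Atg14, chr14:47568385-47568684, minus strand: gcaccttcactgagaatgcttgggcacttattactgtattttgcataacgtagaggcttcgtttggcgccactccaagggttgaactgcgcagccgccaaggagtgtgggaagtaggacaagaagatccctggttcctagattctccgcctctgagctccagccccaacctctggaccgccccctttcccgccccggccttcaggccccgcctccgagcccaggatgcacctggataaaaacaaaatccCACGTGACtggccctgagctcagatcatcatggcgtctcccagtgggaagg
Gabarapl1, chr6:129532942-129533241, plus strand: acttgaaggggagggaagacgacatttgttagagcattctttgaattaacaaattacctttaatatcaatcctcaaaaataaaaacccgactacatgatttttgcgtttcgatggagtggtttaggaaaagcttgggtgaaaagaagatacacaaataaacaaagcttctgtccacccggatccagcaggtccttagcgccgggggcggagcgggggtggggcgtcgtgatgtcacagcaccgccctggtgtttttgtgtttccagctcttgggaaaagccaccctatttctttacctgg
Atg2a, chr19:6241418-6241717, plus strand: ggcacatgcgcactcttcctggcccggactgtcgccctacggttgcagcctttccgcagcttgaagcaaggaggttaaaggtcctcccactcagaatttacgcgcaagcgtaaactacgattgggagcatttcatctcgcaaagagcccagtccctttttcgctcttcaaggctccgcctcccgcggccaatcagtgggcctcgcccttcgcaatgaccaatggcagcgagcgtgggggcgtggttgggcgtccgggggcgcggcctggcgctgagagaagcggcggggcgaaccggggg

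The motifs were the E-box core CACGTG, the longer GTCACGTG, which resembles the element bound by TFEB and contains the core, the forkhead motif GTAAACA bound by FOXO factors, and the core antioxidant response element TGACNNNGC, each on both strands. Promoters were listed for 35 of the 41 genes, 43 windows in all. GTCACGTG stood in 4 of the 43 windows (Atg14, Atg3, Atg7 and Lamp1), or 9.30%, against 2.25% of all 32851 promoters listed. CACGTG stood in 5 of the 43, or 11.6%, against 7.15% of all; the fifth gene was Atg5. The antioxidant core stood in 7 of the 43, or 16.3%, against 12.4%. These 7 windows belonged to 5 genes, Atg13, Map1lc3b, Tax1bp1, Ulk2 and Vmp1. The forkhead motif stood in 0 of the 43, against 3.65%. Of the 4 printed promoters only that of Atg14 held a match, the reverse complement of GTCACGTG, which contains the core. The 4 genes with GTCACGTG spanned differences of 0.91 for Atg14, 0.39 for Atg7, 0.13 for Lamp1 and 0.18 for Atg3, whose only spot was flagged. A match describes letters in this window and is not a binding site.

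Initiation genes had the highest median of the roles in the main setting, but not with probes averaged, where it was 0.29 against 0.34 for conjugation. Of 17 genes 16 were measured; their median was 0.31, or 0.24 above all genes, and 2 were at least 1.5-fold higher. The median stayed above that of all genes in all 13 settings, by 0.15 to 0.27, but settings that match by 1 constant could not differ in this. The 5 genes of the ULK complex all had differences above 0, from 0.03 to 0.53, against 57.5% of all measured genes. Of the 5, 4 lay above the all-gene median, and under spike-in matching 2 lay above 0. The median of the complex was 0.37. Under spike-in matching it was -0.04, and relative to all genes it ran from 0.22 to 0.31. None of the 5 reached 1.5-fold in the main values.

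Ulk1, the kinase that phosphorylates the other initiation factors, had a level of 2.08 in the TSG-6 pool and 1.67 in the PBS pool, a difference of 0.41. Its paralogue Ulk2 had 2.12 in the TSG-6 pool and 1.76 in the PBS pool, a difference of 0.37, with a second probe at 0.22. The paralogues thus differed by nearly the same amount. Rb1cc1, which encodes the large scaffold FIP200, stood at 1.32 in the TSG-6 pool and 0.79 in the PBS pool; its 2 probes gave differences of 0.53 and 0.55. Atg101, which stabilises Atg13, differed by 0.23 (3.19 in the TSG-6 pool, 2.96 in the PBS pool). Atg13, the adaptor of the complex, was nearly level at 2.23 in the TSG-6 pool and 2.19 in the PBS pool, a value of -0.04 relative to the all-gene median.

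The lipid kinase complex was uneven. Atg14, the subunit that brings the complex to sites of autophagosome formation, gave a signal of 5109 in the TSG-6 pool and 3456 in the PBS pool, and levels of 1.04 in the TSG-6 pool and 0.13 in the PBS pool. It was 1.89-fold higher, and only 3.64% of measured genes had a larger difference. Its difference ran from 0.50 under spike-in matching to 1.20 over the alternatives, and it was past 1.5-fold in 12 of 13 settings. Becn1, which encodes the scaffold beclin 1, went the other way: 1530 in the TSG-6 pool and 2549 in the PBS pool, a difference of -0.39. This was the lowest of the 35 and below 0 in each setting that measured it. Among all measured genes it was less extreme than Atg14, since 83.1% of them had a higher difference. The gap between Atg14 and Becn1, which does not depend on matching the arrays by 1 constant, was 1.30 and ran from 1.23 to 1.30 over 12 settings. Each of the 2 genes was read from 1 spot of 1 probe, with a spot error of 0.20. The range over settings, here and for the gaps between paralogues below, leaves out spot error. How often any 2 measured genes lie as far apart was not counted, so these gaps cannot be read as a trait of the genes.

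Pik3c3, the lipid kinase Vps34 itself, differed by 0.45 (-0.95 in the TSG-6 pool, -1.40 in the PBS pool), and its second probe, on a flagged spot, by 0.41. Ambra1, a beclin 1-binding regulator, differed by 0.10. Uvrag, the subunit that replaces Atg14 in the endosomal form of the complex, differed by 0.24 on a spot flagged on the TSG-6 array. The value of Pik3r4, the regulatory subunit Vps15, rested on 1 spot of 10, because 9 carried a flag on the TSG-6 array and 4 of these also on the PBS array. The single unflagged spot gave 3318 in the TSG-6 pool and 4634 in the PBS pool, a difference of -0.13. The 9 flagged spots averaged 0.25 ± 0.20 (SD, n = 9 spots), with 8 above 0, and all 10 averaged 0.21 ± 0.22 (SD, n = 10 spots). The sign of Pik3r4 was therefore not settled by these arrays.

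Among the genes that supply membrane, Atg2a and Atg2b, paralogues that carry lipid to the growing membrane, differed from each other. Atg2a gave 6855 in the TSG-6 pool and 5776 in the PBS pool and was 1.51-fold higher, just past the threshold; it stayed past it in 7 of 13 settings, and its difference was 0.19 under spike-in matching. Atg2b gave 909.03 in the TSG-6 pool and 1240 in the PBS pool, a difference of -0.10. Relative to the all-gene median Atg2b lay at -0.17, within 1 spot error. The gap between the paralogues was 0.69, and 0.62 to 0.69 over 12 settings. Atg9a, the transmembrane lipid scramblase of the seed vesicles, lay just under the threshold at 0.58, with a dim signal of 265.3 in the TSG-6 pool and 226.9 in the PBS pool.

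Wipi1 and Wipi2, which bind the lipid made by Pik3c3, differed by 0.28 and 0.34. Each had a second probe on a spot flagged on both arrays, at 0.16 for Wipi1 and -0.05 for Wipi2, so the value of Wipi2 depends on the probe. The Wipi1 probe used was dim, at 228 in the TSG-6 pool and 239 in the PBS pool. Its flagged probe was far brighter, at 8271 in the TSG-6 pool and 9412 in the PBS pool. Vmp1, a membrane protein of the endoplasmic reticulum, was level at 3.18 in the TSG-6 pool and 3.19 in the PBS pool, a difference of -0.01.

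**Figure D2:**
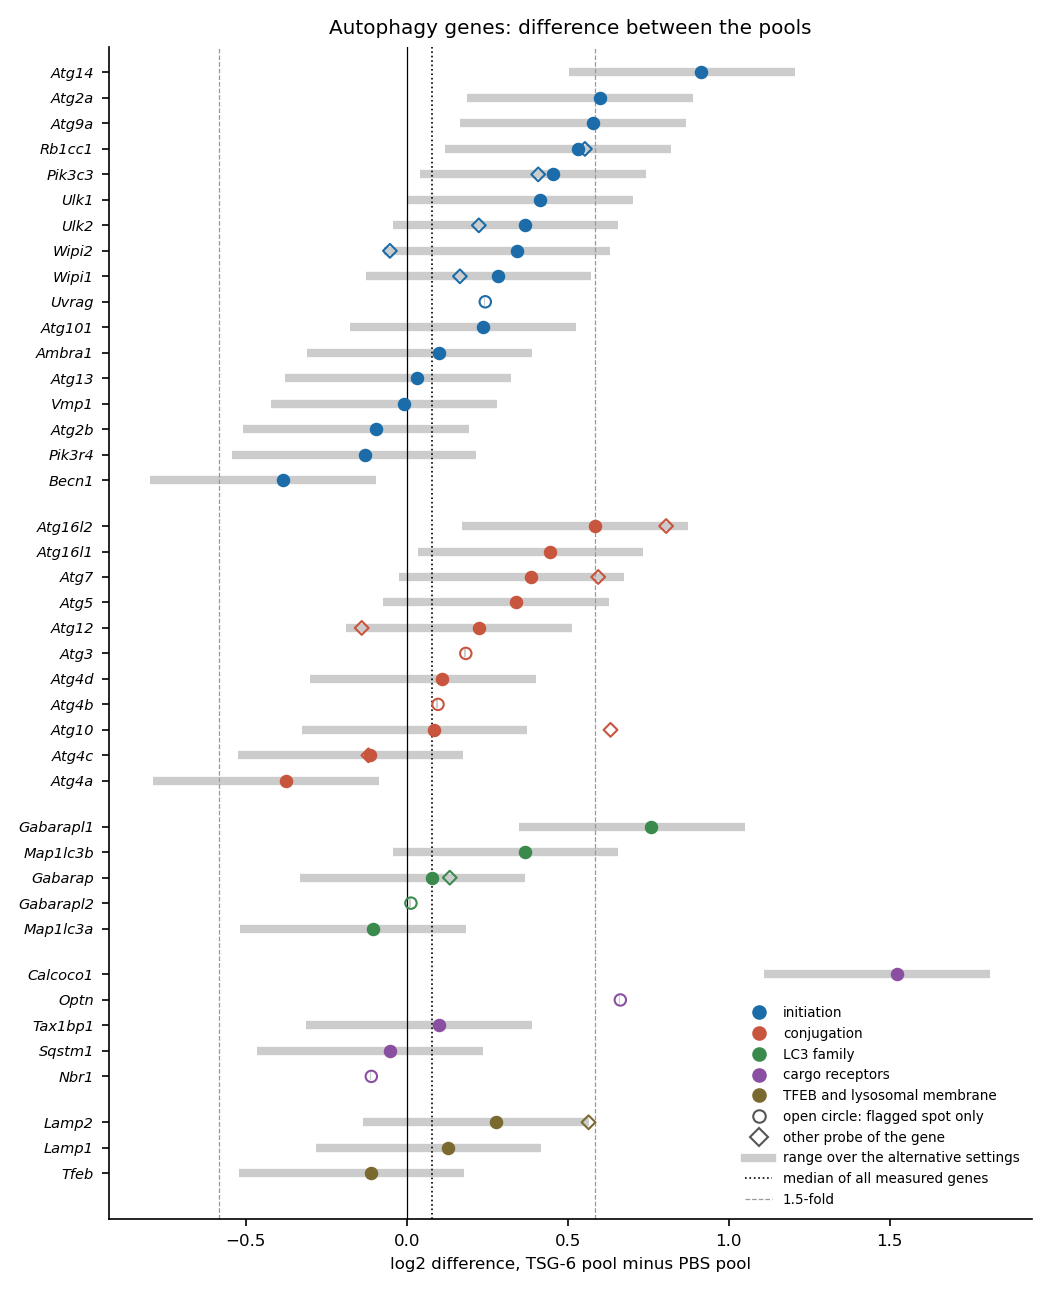
Log2 difference (TSG-6 pool minus PBS pool) of each of the 41 genes, ordered within roles; filled circles are the main values, open circles genes with flagged spots only, diamonds other probes of the same gene, and grey bars the range over the alternative settings. Calcoco1, Atg14, Gabarapl1 and Atg2a lie to the right of the 1.5-fold line and no main value lies to the left of its counterpart.

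Conjugation genes had a median of 0.22 over 9 measured of 11, or 0.15 above all genes, and none passed 1.5-fold. Relative to all genes the median ran from 0.10 to 0.27 over the settings. Atg7, the E1-like enzyme that activates both ubiquitin-like proteins, had levels of 1.09 in the TSG-6 pool and 0.71 in the PBS pool, and its 2 probes differed by 0.39 and 0.59. Atg10, the E2-like enzyme of Atg12, differed by 0.08 with the probe used and 0.63 with the other. For Atg10 the choice of probe decides between no difference and one past 1.5-fold. Atg3, the E2-like enzyme of LC3, differed by 0.18 on a spot flagged on the PBS array.

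The complex that places LC3 on the membrane is made of Atg5, Atg12 and Atg16l1. Atg5 had levels of 2.57 in the TSG-6 pool and 2.23 in the PBS pool, a difference of 0.34. Atg16l1 differed by 0.44 (1.34 in the TSG-6 pool, 0.90 in the PBS pool). The probes of Atg12 disagreed in sign, at 0.22 and -0.14. Atg16l2, a paralogue of Atg16l1, gave 2682 in the TSG-6 pool and 2284 in the PBS pool, a difference of 0.58 that lay just under 1.5-fold, while its second probe gave 0.81.

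The Atg4 proteases, which trim LC3 proteins before conjugation and release them afterwards, did not share a direction. Atg4a had a difference of -0.38, at a dim signal of 79.6 in the TSG-6 pool and 131.9 in the PBS pool, and it passed 1.5-fold lower in 2 settings, loess (-0.61) and spike-in matching (-0.79). Atg4c differed by -0.11 and -0.12 with its 2 probes and Atg4d by 0.11. Atg4b, the paralogue with the broadest activity, differed by 0.10 on a spot flagged on both arrays. Apart from Atg4a these values lay within 1 spot error of the all-gene median.

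In the LC3 family the paralogues had unlike differences. Gabarapl1 gave 47592 in the TSG-6 pool and 35857 in the PBS pool, with levels of 4.26 in the TSG-6 pool and 3.50 in the PBS pool, and was 1.69-fold higher. It was past 1.5-fold in 10 of 13 settings; the exceptions were quantile normalization (0.45), loess (0.55) and spike-in matching (0.35). Gabarap, its close paralogue, gave 27310 in the TSG-6 pool and 33007 in the PBS pool and differed by 0.08 and 0.13 with its 2 probes. The gap between Gabarapl1 and Gabarap was 0.68 and ran from 0.62 to 0.79 over all 13 settings. Gabarapl2 differed by 0.01 on a spot flagged on both arrays.

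Map1lc3b and Map1lc3a encode LC3B and LC3A, the proteins most used as autophagosome markers. Map1lc3b was the best measured gene of the list, with 9 unflagged replicate spots. Their signals ran from 13743 through a median of 14134 to 14556 in the TSG-6 pool, and from 13194 through 13755 to 14723.5 in the PBS pool. The raw ranges overlapped, but after matching the arrays every one of the 9 spots was higher in the TSG-6 pool, by 0.37 ± 0.05 (SD, n = 9 spots), or 1.29-fold; with spike-in matching the mean was -0.04. The tenth spot, flagged on the TSG-6 array, gave 0.53. The spots share the same 2 pools, so this SD covers spot noise only. Map1lc3a differed by -0.11 (2.20 in the TSG-6 pool, 2.31 in the PBS pool). Relative to the all-gene median it lay at -0.18, within 1 spot error. The gap between Map1lc3b and Map1lc3a was 0.47, and 0.41 to 0.49 over the settings. Over the 4 measured LC3 genes the median was 0.22, or 0.15 above all genes, but with flagged spots kept, which adds Gabarapl2, it was level with the all-gene median.

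**Figure D3:**
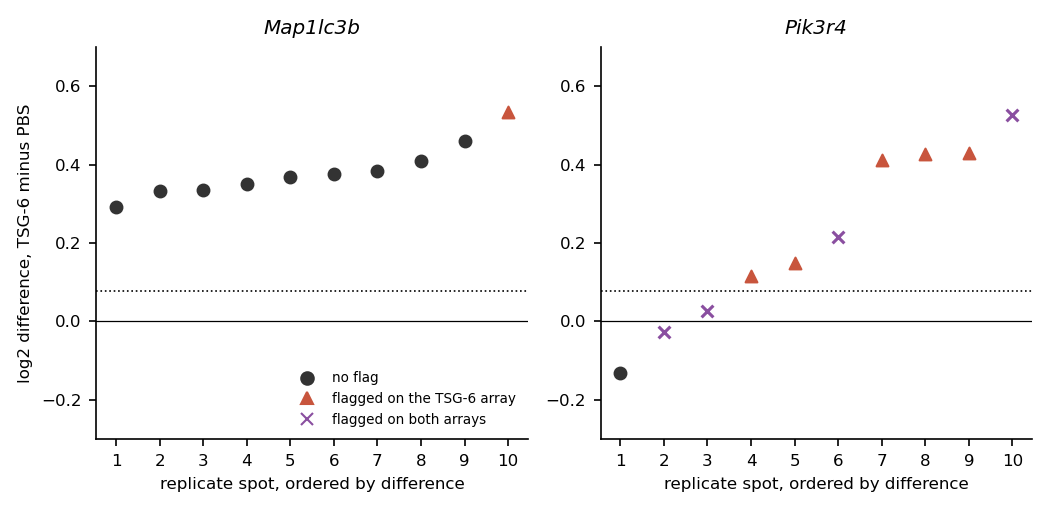
Log2 difference (TSG-6 minus PBS) at each of the 10 replicate spots of Map1lc3b and of Pik3r4, ordered by value; circles carry no outlier flag, triangles a flag on the TSG-6 array and crosses a flag on both, and the dotted line is the median of all measured genes. The 9 unflagged Map1lc3b spots run from 0.29 to 0.46, whereas the 10 Pik3r4 spots run from -0.13 to 0.53.

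Cargo receptors held the gene with the largest difference and also some of the smallest. Calcoco1, described in human cells as a receptor for autophagy of the endoplasmic reticulum, gave a signal of 796.6 in the TSG-6 pool and 353.8 in the PBS pool. Its levels were -1.64 in the TSG-6 pool and -3.16 in the PBS pool, and it was 2.87-fold higher. Only 0.898% of all measured genes had a larger difference. It was past 2-fold in each of the 12 settings that measured it, from 1.11 under spike-in matching to 1.81, and the stricter filter on dim probes left it out. As for Atg14, Gabarapl1 and Atg2a, a single spot of 1 probe carried this value, so no second probe checks it.

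Sqstm1, which encodes the receptor p62 and is itself degraded by autophagy as a protein, was level. Its signal was 16024 in the TSG-6 pool and 21206 in the PBS pool, with levels of 2.69 in the TSG-6 pool and 2.75 in the PBS pool, a difference of -0.05. Tax1bp1, another ubiquitin-binding receptor, differed by 0.10 (1.86 in the TSG-6 pool, 1.76 in the PBS pool). Optn, a receptor in mitophagy and in the clearance of bacteria, was 1.58-fold higher with 4366 in the TSG-6 pool and 3517 in the PBS pool, but its only spot was flagged on the PBS array. Nbr1, which acts with p62, differed by -0.11, also on a spot flagged on the PBS array. The median of the 3 measured receptors was 0.10, or 0.02 relative to all genes; it was -0.06 relative to them with the stricter filter, where Calcoco1 dropped out.

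Tfeb, the transcription factor that activates lysosomal and autophagy genes when it enters the nucleus, differed by -0.11 (-0.67 in the TSG-6 pool, -0.56 in the PBS pool). Lamp1 and Lamp2 encode the main glycoproteins of the lysosomal membrane. Lamp1 differed by 0.13 (3.52 in the TSG-6 pool, 3.39 in the PBS pool) and Lamp2 by 0.28 (3.16 in the TSG-6 pool, 2.89 in the PBS pool). A second Lamp2 probe, for another transcript and flagged on the TSG-6 array, gave 0.56. The median of the 3 genes relative to all genes was 0.05, and -0.10 after quantile normalization, the lowest of the settings.

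Across roles, the medians relative to all genes were 0.24 for initiation, 0.15 for conjugation, 0.15 for the LC3 family, 0.02 for cargo receptors and 0.05 for Tfeb with the lysosomal membrane genes. Initiation and conjugation lay above all genes in each of the 13 settings, the LC3 family in 11, cargo receptors in 12 and the last group in 11. Settings that match the arrays by 1 constant cannot differ in such counts, which are therefore not separate checks. Within initiation, the ULK complex lay above all genes in 13 settings, the lipid kinase complex in 12 and the membrane supply genes in 11. These shifts were smaller than the range inside each role, which was from -0.39 to 0.91 for initiation, from -0.38 to 0.58 for conjugation, from -0.11 to 0.76 for the LC3 family and from -0.05 to 1.52 for cargo receptors. No difference between roles could be tested.

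**Figure D4:**
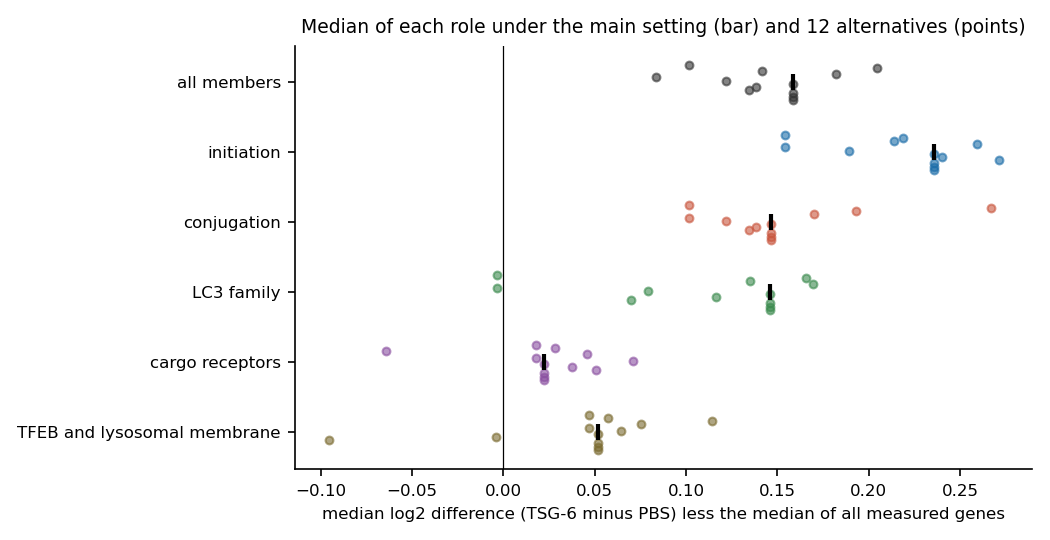
Median log2 difference (TSG-6 minus PBS) of all measured members and of each role, less the median of all measured genes in the same setting; black bars are the main values and points the 12 alternatives. Initiation and conjugation lie right of 0 in each setting, while the LC3 family, cargo receptors and Tfeb with the lysosomal membrane genes reach 0 or below in at least 1. Points of settings that match the arrays by 1 constant equal the main value.

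Neighbouring parts of the pathway were read from lists chosen by role. Their counts stand beside the 10.5% of all genes past 1.5-fold upward and the 10.3% downward, and no list was tested. Of 16 measured receptors for mitochondria, endoplasmic reticulum and other organelles, 4 were at least 1.5-fold higher and none lower, with a median of 0.27. Among them were the mitophagy receptor gene Bnip3 (1.89-fold), Retreg1, a receptor for the endoplasmic reticulum (1.70-fold) and Ccpg1, another receptor for the endoplasmic reticulum (1.55-fold). The 2 probes of Bnip3 gave 0.48 and 0.91. Bnip3, Retreg1 and Ccpg1 each stayed above 0 in every alternative run. Under spike-in matching, the lowest of the settings, Ccpg1 differed by 0.22.

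Genes of the vacuolar proton pump, which acidifies the lysosome, had the lowest median of these lists. It was -0.15 over 10 measured of 15 genes, or -0.22 relative to all genes, with a range of -0.27 to -0.20 over the settings. Of the 10 genes 3 lay above 0, and the accessory subunit Atp6ap1 was 1.59-fold lower (749 in the TSG-6 pool, 1517 in the PBS pool). Lysosomal hydrolases and related genes had a median of 0.11 over 20 of 27, with the cathepsin gene Ctsf 1.93-fold higher and Cd63, a membrane protein of lysosomes and late endosomes, 1.53-fold lower. Fusion genes had a median of 0.17 over 14, with 1 past 1.5-fold: Stx17, the autophagosomal syntaxin, was 1.74-fold higher, and its 2 probes gave 0.37 and 0.80.

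Of 21 measured genes of mTORC1 and AMPK control, 2 were at least 1.5-fold higher and 2 lower, with a median of 0.12; these shares were near those of all genes. Deptor, an inhibitor of mTOR, was 1.60-fold higher and the sestrin gene Sesn3 1.51-fold higher. Castor1, an arginine sensor, was 2.19-fold lower at a dim signal of 42.6 in the TSG-6 pool and 119.2 in the PBS pool, and differed by -0.43 under normexp background correction. Prkaa1, a catalytic subunit of AMPK, was 1.65-fold lower, but differed by -0.35 under normexp and by -0.44 with unflagged spots. Of 11 measured transcriptional regulators 2 were past 2-fold higher, Crebrf (2.20-fold) and the forkhead factor gene Foxo3 (2.08-fold). Both were dim: Foxo3 gave 98.5 in the TSG-6 pool and 60.3 in the PBS pool, and under normexp Crebrf differed by 0.55 and Foxo3 by 0.37. Ddit3, the stress factor CHOP, was 2.42-fold lower and Mitf, a relative of Tfeb, 1.85-fold lower. The 2 probes of Mitf gave -0.89 and -0.49. Other core genes and modifiers held none past 1.5-fold among 12, with a median of 0.17.

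Sqstm1 is a target of the antioxidant factor NRF2, and p62 binds the NRF2 inhibitor KEAP1. Of 7 measured NRF2 targets, 1 was at least 1.5-fold higher and 1 lower, with a median of 0.17: Nqo1 was 2.18-fold higher and Gsta1, whose sequence is close to that of other glutathione transferases and whose value is therefore uncertain, 1.91-fold lower. Of the pathway genes named here, Ddit3, Mitf, Nqo1 and Gsta1 stayed past 1.5-fold in each setting, and each of the others fell short of it in at least 1. For Mitf, the second probe alone fell short of 1.5-fold, at -0.49.

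**Figure D5:**
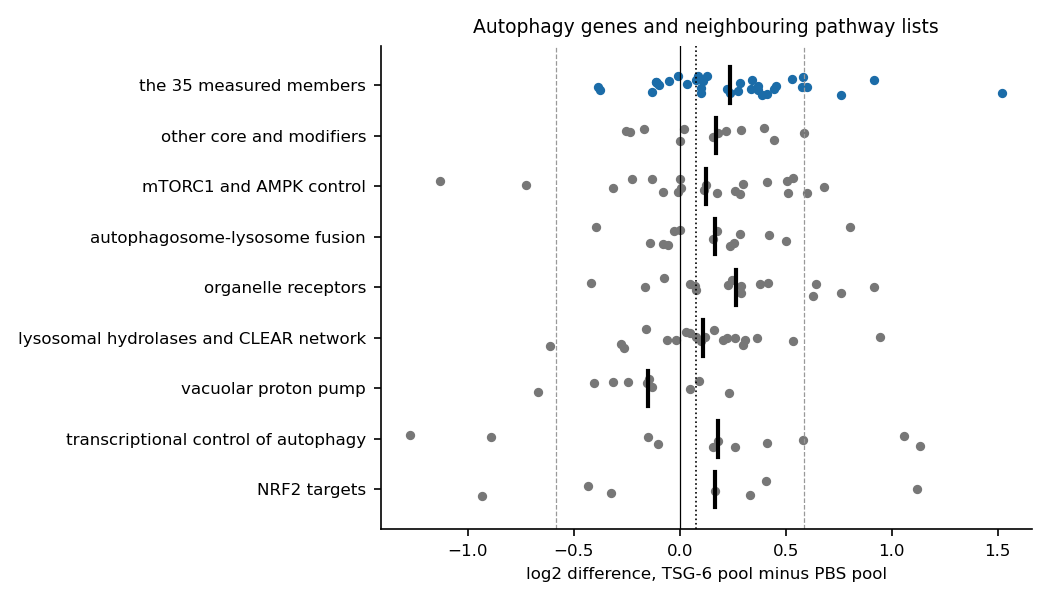
Log2 difference (TSG-6 pool minus PBS pool) of the 35 measured autophagy genes and of the measured genes of 8 neighbouring lists; points are genes, black bars medians, the dotted line the median of all measured genes and dashed lines 1.5-fold. The median of the vacuolar proton pump lies at -0.15, left of 0, and those of the other lists between 0.11 and 0.27.

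Cell type markers also differed between the pools, and their part in the values above was not tested. Hepatocyte markers, 6 measured of 7, lay far above the 75th percentile of both arrays, with a mean level of 4.19 in the TSG-6 pool and 3.87 in the PBS pool and a summed signal of 281467 in the TSG-6 pool and 285417 in the PBS pool. Their differences ran from 0.17 to 0.37. Their median was 0.35, against 0.23 for the autophagy genes, but that order did not hold in every setting: the lowest value relative to all genes was 0.02 for the hepatocyte markers and 0.08 for the autophagy genes. Markers of activated stellate cells had a median of -0.97 over 9 genes, with 5 past 1.5-fold lower, and a mean level of 0.77 in the TSG-6 pool and 1.79 in the PBS pool; their summed signal was 89750 in the TSG-6 pool and 179349 in the PBS pool, and Acta2 was 5.52-fold lower. Macrophage markers went both ways, with a median of -0.40 over 8 of 10. Itgax (-1.43), Gpnmb (-1.32) and Trem2 (-0.82) were past 1.5-fold lower, while 3 markers had differences above 0, the highest at 0.29. The list had a mean level of 2.11 in the TSG-6 pool and 2.58 in the PBS pool. Neutrophil markers had a median of 3.34 over 8, with a range of 0.18 to 3.96 and 7 past 1.5-fold higher. Their mean level was 1.90 in the TSG-6 pool and -0.85 in the PBS pool. Sinusoidal endothelial markers had a median of 0.27 over 5, from -0.26 to 0.39. Cholangiocyte markers had a median of -0.29 over 3 of 5 and muscle markers -1.32 over 2 of 4. Erythroid markers also went both ways, with a median of 0.85 over 3 of 5 and a range of -0.13 to 2.01. Their summed signal was 49993 in the TSG-6 pool and 59762 in the PBS pool.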

How the data were processed

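Total liver RNA, pooled from 3 mice per group, was measured on 1 array per group. The deposited scanner files give a linear intensity per spot, the processed signal, from which background and spatial trend were already removed, per the file headers. Agilent Feature Extraction 11.5.1.1 is named in those headers, and 10.7 in the submitters' processing notes. The deposited value table holds log2 values of the same arrays; for 100% of 55249 single-spot probes the column differed from log2 of the processed signal by 1 constant, within 0.001, with a column median of -3.76 for TSG-6 and -3.89 for PBS, so scale and direction are known.

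Levels were log2 processed signals minus each array's 75th percentile over 59305 non-control spots. Spots flagged as outliers on either array (6.44% on the TSG-6 array, 3.40% on the PBS array) were left out, and no spot was saturated. A probe was detected where at least 50% of its used spots were well above background. Accessions were matched, without version, to RefSeq symbols (GRCm38.p6, names only; the array was designed on mm9): 26762 of 55681 probes matched, and accessions shared by 2 genes were dropped. A gene was read from its probe detected on the most arrays, then of highest mean level. Calls were by size, 1.5-fold and 2-fold, with no test. Named genes were all 41 members, up to 4 genes past 1.5-fold per pathway list and up to 3 per marker list. One gene that this rule names is not reported here. Members and lists were chosen with earlier results of these data known. Alternatives were run with limma 3.58.1 in R 4.3.3 and Python 3.11.15, with normexp run on median spot and local background signals (offset 50). The steps were tested on simulated data. The precision is limited by the number of arrays.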

Additional observations from a re-analysis of the deposited data

How the results depend on the processing

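Counts and medians depended on how the arrays were matched. With the percentile over unflagged spots 15 of 35 members were at least 1.5-fold and 3 at least 2-fold higher, beside 4248 and 1019 of all 15148 genes. At least 1.5-fold higher were 2 members with quantile normalization, 2 with loess and 1 with spike-in matching. The counts over all 15148 genes were 1139, 970 and 450 in that order. With loess 1 member and with spike-in matching 2 were at least 1.5-fold lower, beside 2078 and 4317 of all 15148 genes. With the stricter filter on dim probes, which left out Calcoco1, 0 of 26 members were 2-fold higher, beside 128 of 7574 genes. The median of all members was 0.52 with unflagged spots, 0.11 with quantile normalization, 0.083 with loess and -0.18 with spike-in matching. In the same order of unflagged spots, loess and spike-in matching, it was 0.60, 0.19 and -0.10 for initiation and 0.51, 0.083 and -0.19 for conjugation. For the LC3 family it was 0.51 with unflagged spots, 0.042 with quantile normalization, 0.061 with loess, -0.19 with spike-in matching, 0.072 with the value table and 0.078 with flagged spots kept. For cargo receptors it was 0.39 with unflagged spots and -0.31 with spike-in matching. For Tfeb and the lysosomal membrane genes it was 0.42 with unflagged spots, -0.12 with quantile normalization, -0.059 with loess and -0.28 with spike-in matching. Matching by 1 constant shifts every gene alike; for quantile normalization and loess the cause was not tested. No named gene past 1.5-fold changed sign in the 12 alternatives. No paired analysis was possible because each group is 1 pool on 1 array, and for the same reason no replicate could be left out. Dim probes limit Atg4a, Atg9a, Wipi1, Castor1, Foxo3 and Crebrf most.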
